A study of Mus musculus with 25 samples.

Results

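A set of 46 named genes with a late fall in regenerating mouse liver was described, genes whose signal was low at 72 hours after partial hepatectomy (PHx) and not yet that low at 12 hours. The genes were chosen by their measured means. They came from the mRNA probes with a gene name in the study's list of changed transcripts, of which the rows at hand hold 1257 probes of 1170 genes. A probe was kept when its mean log2 intensity at 72 hours lay at least 1 below the sham mean (a fold of 2 or more). Its mean at 12 hours also had to lie less than 1 below the sham mean. Each gene was then represented by its kept probe with the highest mean. These thresholds kept 55 probes of 53 genes. Names starting with Cyp or Slc and some further names, among them markers of liver cell types, were set aside by the rule, which removed 7 genes and left 46. As the sham, 12 hour and 72 hour means chose the genes, every difference from sham given here for those times is a description with no test.

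Liver RNA came from male Balb/c mice, 8 weeks old in the labels, which underwent 2/3 PHx or sham surgery. Livers were taken at 4, 12, 36 or 72 hours after PHx, and 5 livers of sham operated mice, all at 4 hours after surgery, served as the controls of every time. For the later times, the effect of PHx and that of time since the operation cannot be told apart. Each of the 25 liver samples was hybridised to 1 single-colour array, so that n = 5 in each group.

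After PHx, the hepatocytes that remain leave quiescence, replicate their DNA and divide while the liver goes on with its metabolic and secretory work. Lipids build up in the regenerating liver for a time, growth factors act through receptors such as that for epidermal growth factor, and new membrane and protein pass through the endoplasmic reticulum and Golgi. The 46 genes serve many of these tasks: sterol and fatty acid metabolism, growth factor and death receptor signalling, vesicle traffic, autophagy, protein turnover, ribosome assembly and RNA processing. In bulk liver RNA, fewer cells of a type and less RNA per cell cannot be told apart.

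To give the sequence context of genes with a shared late fall, promoters are shown for 5 of them, each the 250 bases before the start in the GRCm38.p6 promoter sequences of RefSeq, written 5′ to 3′ on the strand of the gene. Where a gene had several starts, only the entry listed first was used, here and in the counts of motifs. Insig2 is shown for its low values at 72 hours alone, Scd3 and Sec24d for their falls between 4 and 36 hours, and Egfr and Mgll as a growth factor receptor and a lipase of the same set. Capitals mark the motifs searched on both strands: the TATA box as TATAAA, the CCAAT box as CCAAT, the GC box as GGGCGG, the E box as CACGTG, the core of cAMP response elements as TGACG, the core of nuclear receptor elements as AGGTCA and part of the HNF1 site as GTTAAT. None of these motifs contains another.
Insig2 (chr1:121332590-121332839, minus strand): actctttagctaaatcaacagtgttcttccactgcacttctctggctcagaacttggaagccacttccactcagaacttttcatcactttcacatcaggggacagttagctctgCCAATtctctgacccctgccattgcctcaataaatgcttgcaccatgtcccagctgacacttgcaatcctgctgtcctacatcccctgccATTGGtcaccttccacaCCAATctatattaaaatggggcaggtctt
Scd3 (chr19:44203038-44203287, plus strand): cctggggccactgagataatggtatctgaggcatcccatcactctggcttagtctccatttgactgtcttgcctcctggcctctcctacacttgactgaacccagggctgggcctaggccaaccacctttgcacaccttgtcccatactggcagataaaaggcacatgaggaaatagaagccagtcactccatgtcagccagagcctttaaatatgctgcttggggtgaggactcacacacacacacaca
Sec24d (chr3:123267246-123267495, plus strand): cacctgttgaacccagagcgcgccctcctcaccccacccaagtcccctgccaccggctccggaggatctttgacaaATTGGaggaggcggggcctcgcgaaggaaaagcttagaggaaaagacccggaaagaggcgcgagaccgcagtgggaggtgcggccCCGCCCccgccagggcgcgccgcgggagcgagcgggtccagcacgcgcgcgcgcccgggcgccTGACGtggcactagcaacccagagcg
Egfr (chr11:16751953-16752202, plus strand): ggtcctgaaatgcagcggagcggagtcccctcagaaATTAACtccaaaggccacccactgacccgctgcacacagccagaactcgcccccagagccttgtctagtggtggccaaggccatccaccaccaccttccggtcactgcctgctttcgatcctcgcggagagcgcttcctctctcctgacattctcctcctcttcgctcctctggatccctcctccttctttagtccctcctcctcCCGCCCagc
Mgll (chr6:88724162-88724411, plus strand): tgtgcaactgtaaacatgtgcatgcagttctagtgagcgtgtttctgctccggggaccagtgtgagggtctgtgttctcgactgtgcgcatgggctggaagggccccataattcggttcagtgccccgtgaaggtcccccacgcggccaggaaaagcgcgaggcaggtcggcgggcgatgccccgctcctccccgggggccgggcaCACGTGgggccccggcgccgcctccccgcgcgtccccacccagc
The Insig2 window holds CCAAT 3 times, once as its reverse complement, and no CG dinucleotide. The Scd3 window holds none of the 7 motifs and no CG dinucleotide either, whereas that of Sec24d holds 29 CG dinucleotides, a reversed CCAAT, a reversed GC box and TGACG. The Egfr window holds a reversed GTTAAT and, close to the start, a reversed GC box. The Mgll window holds an E box and 23 CG dinucleotides.

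Promoter windows of 300 bases, reaching 50 bases past the start, were matched for 40 of the 46 genes, and Atg16l1, Itpr1, Kif5b, Pxk, Rab18 and Rp9 had no entry. The GC box stood in 24 of the 40 windows (60.0%), against 35.9% of all 27025 promoters and 68.2% of 487 promoters of the other named genes in the same expression clusters. CCAAT stood in 35.0% of the 40 windows, against 37.9% of all promoters and 37.8% of the cluster genes, and TGACG in 37.5% against 21.0% of all and 34.3% of the cluster genes. The E box stood in 7 windows (17.5%), those of Mgll, Golga5, Asb2, Trim39, Prpf39, Polr3gl and Zfp207, against 7.24% of all promoters and 11.1% of the cluster genes. TATAAA was found in 7.5% against 14.2% of all, AGGTCA in 5.0% against 16.04%, and GTTAAT in 7.5% against 7.2%, and the shares of the cluster genes were 8.01%, 10.9% and 3.49% in the same order. The 27025 promoters include genes not listed as protein coding. Among 17492 promoters of protein coding genes, the GC box stood in 46.3%, CCAAT in 39.0%, TGACG in 23.8% and the E box in 7.9%. TATAAA stood in 13.3% of these, AGGTCA in 14.5% and GTTAAT in 6.29%. The median GC content was 57.8% for the 40 windows, 52.7% for all promoters, 56.3% for protein coding genes and 62.0% for the cluster genes. In base composition the windows thus lay between the protein coding and the cluster genes. The shares are descriptions of letters and were not tested.

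The arrays had nearly equal median intensities of 97.7 to 102.7, and arrays of 1 group correlated with r of 0.9812 to 0.9963 over all probes. No pair of arrays was identical. In its mean over the 46 genes, PHx 72 h replicate 4 stood apart from its group by Dixon's test, at 9.68 on the log2 scale against 9.435 to 9.496 for the other 4 arrays, and no array of the other groups did. Without this array the thresholds kept 58 genes in place of 46, and the count of genes lower at 36 than at 4 hours was 35 in place of 34. The lowest group mean of any of the 46 genes was 6.91 on the log2 scale, for Cldnd2 at 36 hours, above the 30th percentile of all probe means, 6.09. That percentile is no detection limit, and the median over all probes in sham was 6.63, so the dimmest genes end near the level of a typical probe. Of the 55 markers of liver cell types listed, 11 were named in the rows at hand. The rule set aside F2, F9, Lbp, Crp, Arg1, Col14a1, Clec1b, Anxa4 and Spic by name, so these could not be among the 46 genes. Only Clec14a and Esm1 could have been, and neither was. The hepatocyte markers F2, Crp, Arg1, Lbp and F9 had sham means between 10.80 and 15.92 on the log2 scale, at the 83.6 to 99.5 percentiles of all probes.

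**Figure D1:**
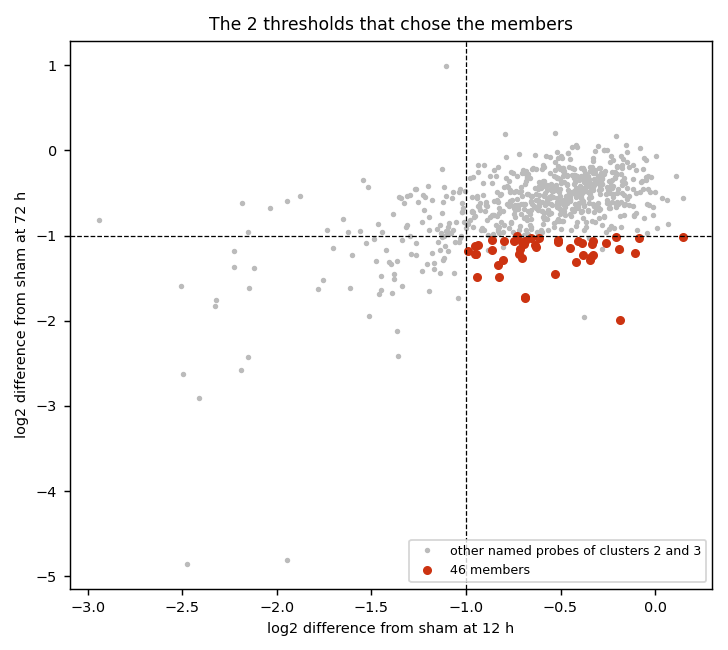
The log2 difference from sham at 12 hours (horizontal axis) and at 72 hours (vertical axis) for 704 named probes of clusters 2 and 3, with the thresholds of -1 as dashed lines. The 46 genes (red) fill the lower right field with 8 other probes (grey), which are further probes of the same genes or genes whose names were set aside, and most of them lie just under the 72 hour line.

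Of the 46 genes, 41 were in the study's cluster 3, Eps15 and Psmc6 were in cluster 2, and Itpr1, Thoc2 and Tbp were listed in both. At 72 hours 29 genes lay between 1 and 1.2 below sham on the log2 scale, and only Insig2, Tmed5 and Trp53inp2 lay 1.5 or more below. The genes just inside the 72 hour threshold were Celf2 (a difference of -1.02), Mgll (-1.02) and Zfp207 (-1.001), and just outside it were Llph (-0.996), Tmem33 (-0.99) and Cops3 (-0.99). At the 12 hour threshold Ghitm (-0.99), Arel1 (-0.95) and Amigo2 (-0.95) were inside, and Mysm1 (-1.02), Chmp1b (-1.03) and Prpf4b (-1.03) were outside. Genes on both sides of a threshold thus differed by hundredths of a log2 unit, less than the spread between arrays of a group.

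Averaged over the 46 genes, the log2 intensity per array ranged from 10.63 to 10.78 in sham livers. After 4 hours this average lay between 10.07 and 10.36, and after 12 hours between 10.04 and 10.24. After 36 hours it lay between 9.55 and 9.86, and after 72 hours between 9.43 and 9.68. The sham arrays lay above all others, and the arrays at 36 and 72 hours lay below all those at 4 and 12 hours. Of the 46 genes, 44 had means below sham at all 4 times. The lowest mean came at 72 hours for 31 genes, at 36 hours for 14 and at 4 hours for Zfp207, while 16 genes were lower at every successive time. At 36 hours the median gene had gone 87.3% of its way to the 72 hour value, with a range from 17.3% for Insig2 to 142.9% for Golga5. The corresponding medians were 37.7% at 4 hours and 55.7% at 12 hours, so the name of a late fall covers genes that were for the most part already down at 36 hours.

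All 5 PHx arrays lay below all 5 sham arrays for 25 genes at 4 hours (4.96% of all probes), 24 at 12 hours (9.79%), 41 at 36 hours (8.4%) and 45 at 72 hours (8.64%). The exception at 72 hours was Scd3. All 4 of these comparisons share the sham arrays that chose the genes, and nothing is read from the counts.

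**Figure D2:**
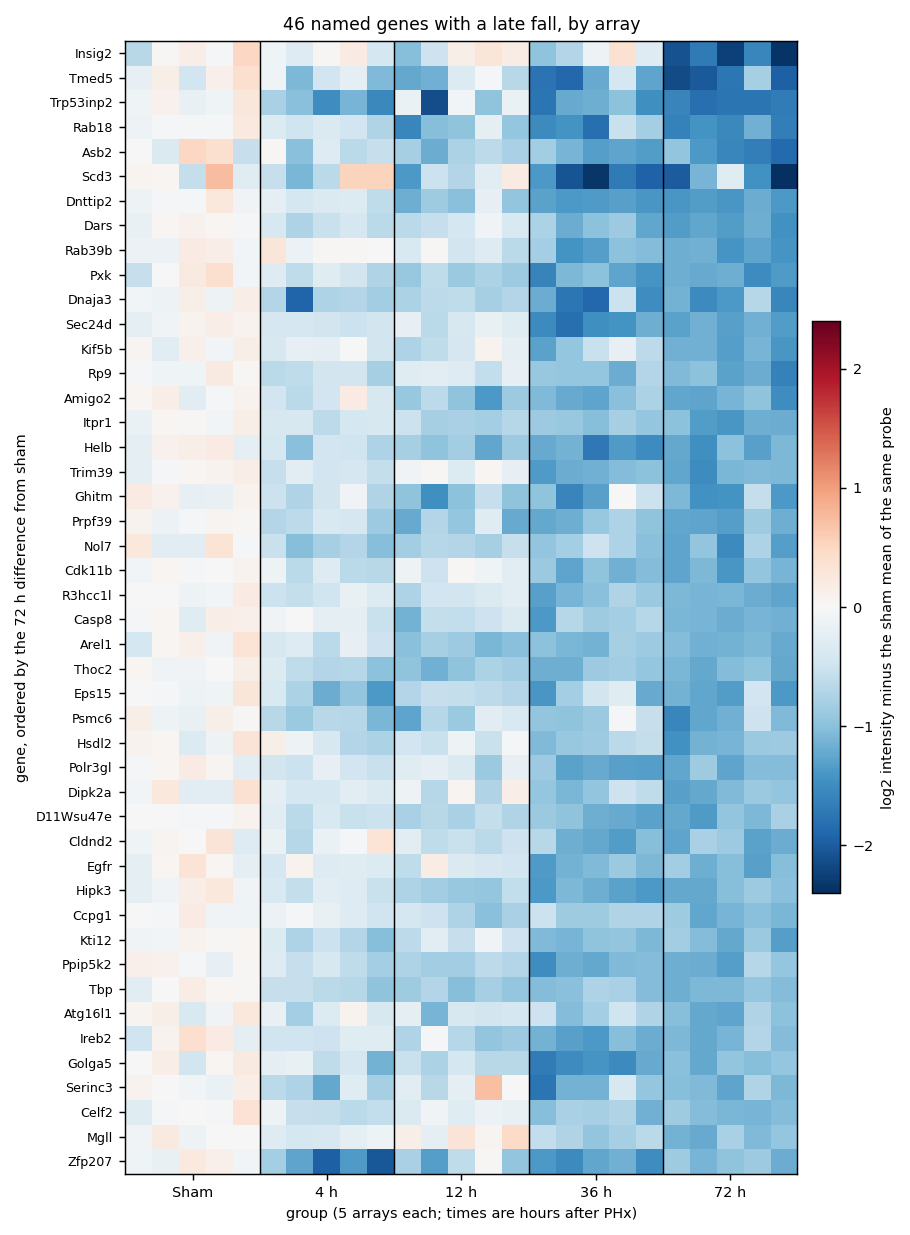
Each row is 1 of the 46 genes and each column 1 of the 25 arrays, coloured by log2 intensity minus the sham mean of the same probe, with blue below and red above sham. The blue deepens from 12 to 36 hours in most rows, with Insig2 (top row) pale until 72 hours and Zfp207 (bottom row) darkest at 4 hours.

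The arrays at 4 and 36 hours were not used by the thresholds, and entered only the choice between several probes of a gene, so their contrast could be tested. The study had chosen the listed transcripts for a change over time on these same arrays, so the count is not independent of that first choice. Between 4 and 36 hours 34 of the 46 genes fell (73.9%, against 11.5% of all 35979 probes), and 0 rose (against 12.7%), at an adjusted p under 0.05 in limma. At an unadjusted p under 0.05, limma had 37 lower and 0 higher, and the methods' t-test had 35 lower, 27 of them after adjustment, and 0 higher after adjustment. The median difference was -0.54 on the log2 scale, against -0.01 over all probes, with a range from -1.64 for Scd3 to 0.13 for Psmc6. Among the 609 other named genes of clusters 2 and 3, 224 fell (36.8%) and 35 rose (5.75%), with a median of -0.20. These shares stand beside the counts for gene lists but are not like for like. The list counts include the members on each list, and some lists hold genes of other clusters. The 609 genes leave out both. The lists were also drawn up with the names and clusters of the listed transcripts known, so their counts are descriptions. For 25 of the 46 genes, all arrays at 36 hours lay below all arrays at 4 hours, which held for 9.05% of all probes.

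**Figure D3:**
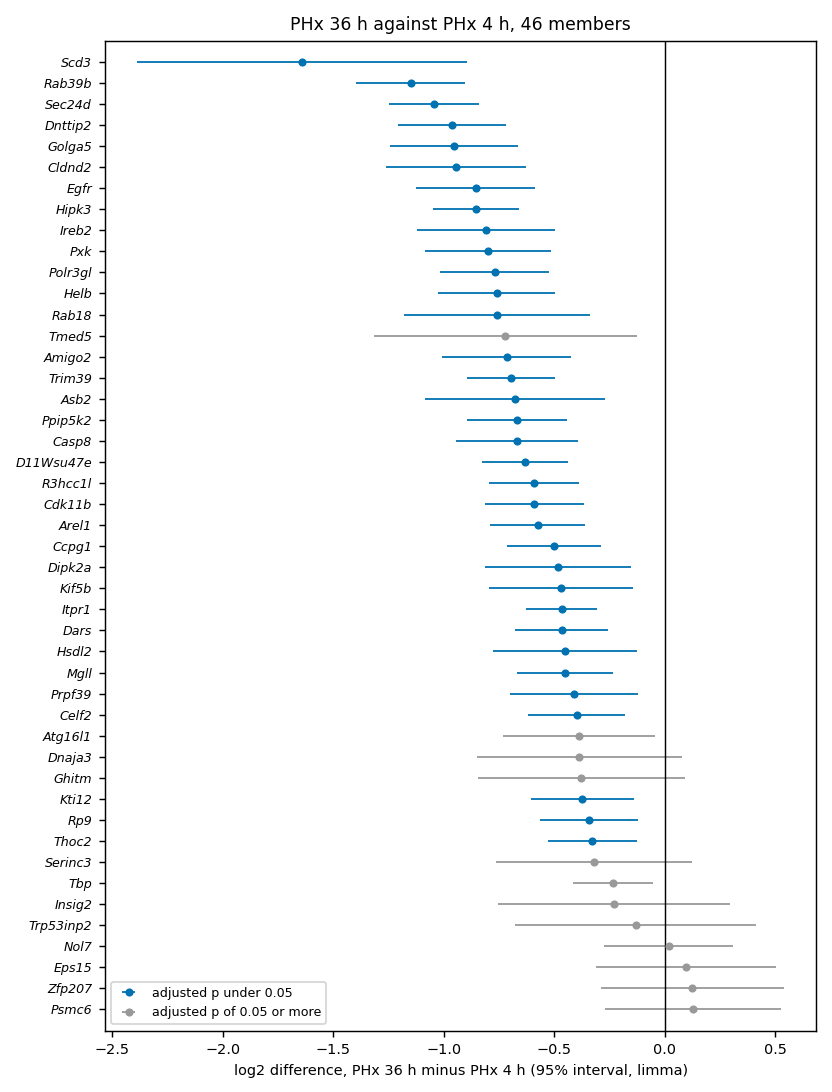
The log2 difference between 36 and 4 hours after PHx (horizontal axis) for each of the 46 genes, with the 95% interval of the limma fit as bars. The 34 genes with an adjusted p under 0.05 (blue) all lie below 0, from Scd3 at -1.64 to Thoc2 at -0.33, and the 12 others (grey) lie between Tmed5 at -0.72 and Psmc6 at 0.13.

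Among the genes of lipid and sterol metabolism, Insig2, Scd3 and Mgll followed 3 different courses. Insig2 encodes a protein of the endoplasmic reticulum membrane that holds back the activation of sterol regulatory element binding proteins and promotes the breakdown of HMG-CoA reductase. Its log2 intensities were 12.42, 13.11, 13.24, 13.04 and 13.57 in the sham group, 12.98, 12.78, 13.12, 13.28 and 12.67 in the 4 hour group and 12.06, 12.58, 13.22, 13.36 and 13.26 in the 12 hour group. The 36 hour group read 12.11, 12.38, 12.96, 13.44 and 12.78, and the 72 hour group read 10.99, 11.38, 10.84, 11.51 and 10.72. The 72 hour arrays lay below all 20 others, and the groups before 72 hours overlapped one another throughout. The mean at 72 hours differed from sham by -1.99, a fold of 3.98 and the widest difference of the 46 genes, but Insig2 did not pass the test between 4 and 36 hours (difference -0.23, 95% interval -0.75 to 0.29, adjusted p = 0.654). From 36 to 72 hours its mean differed by -1.65, and Insig2 was the 1 gene of the 46 whose arrays at 72 hours all lay below those at 36 hours (3.91% of all probes).

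Scd3 encodes a stearoyl-CoA desaturase, which puts a double bond into saturated fatty acids. Scd3 measured 11.06, 11.04, 10.42, 11.73 and 10.70 on the 5 sham arrays, 10.44, 9.90, 10.35, 11.53 and 11.53 on those of 4 hours, and 9.61, 10.47, 10.28, 10.74 and 11.19 on those of 12 hours. Later, it measured 9.62, 8.92, 8.66, 9.30 and 9.05 (36 hours) and 8.998, 9.88, 10.69, 9.53 and 8.60 (72 hours). All arrays at 36 hours lay below all arrays at the 3 earlier stages except for 1 array at 12 hours, replicate 1, which read 9.61 against 9.62 for the highest at 36 hours. At 72 hours the arrays spread over more than 2 log2 units, and 1 of them, replicate 3, lay inside the sham range. Scd3 fell 3.12-fold between 4 and 36 hours (difference -1.64, SE 0.36, adjusted p = 0.00112), the largest change of the 46 genes in this contrast. Scd3 has close relatives of similar sequence, and whether its probe also reads these was not tested.

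Mgll encodes monoglyceride lipase, which releases the last fatty acid from partly digested fat and ends endocannabinoid signals. In sham livers Mgll read 13.61, 13.92, 13.58, 13.70 and 13.69, after 4 hours 13.39, 13.27, 13.32, 13.48 and 13.57, and after 12 hours 13.84, 13.48, 14.00, 13.77 and 14.15. The readings were 13.11, 12.97, 12.75, 12.91 and 13.04 after 36 hours and 12.57, 12.49, 12.93, 12.64 and 12.77 after 72 hours. Mgll was the 1 gene with a 12 hour mean above the sham mean, by 0.15, and its arrays at 36 hours all lay below those at 4 hours. It fell between 4 and 36 hours by 0.45 (SE 0.10, adjusted p = 0.00184). On the list of lipid and sterol metabolism, 7 of 16 named genes fell and 2 rose in this contrast, with a median difference of -0.40. The share lower was 43.8%, against 36.8% of the other named genes of clusters 2 and 3. The 2 list genes that rose, Scd2 and Mid1ip1, were in clusters 1 and 4.

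**Figure D4:**
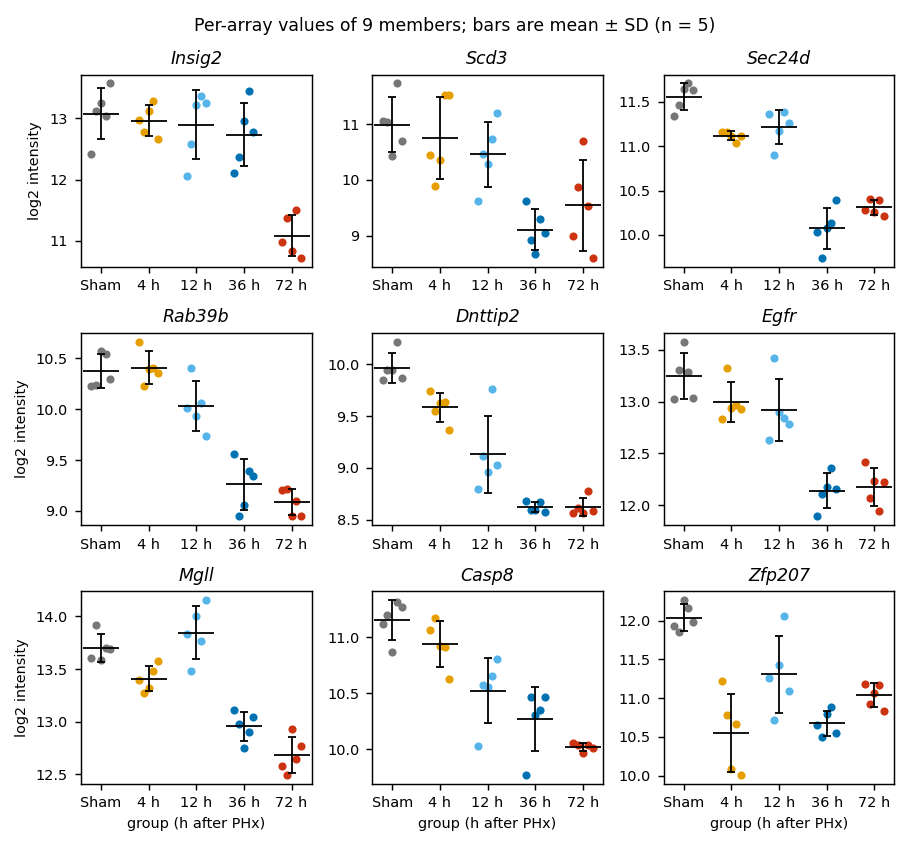
Log2 intensity (vertical axes) on each array for 9 of the 46 genes by group (horizontal axes), with the mean and SD of 5 arrays as black bars. Insig2 drops only at 72 hours, and Sec24d, Rab39b and Egfr are low from 36 hours on. Scd3 is low at 36 hours and spreads up into the sham range at 72 hours. The Mgll mean is above that of sham at 12 hours, with overlapping arrays, and the Zfp207 mean is lowest at 4 hours.

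Egfr, the receptor for epidermal growth factor, transforming growth factor alpha and related ligands, was at 1 level early and at another late. Its log2 intensities were 13.03, 13.30, 13.58, 13.29 and 13.04 in the sham group, 12.84, 13.33, 12.93, 12.96 and 12.93 in the 4 hour group and 12.63, 13.42, 12.90, 12.84 and 12.79 in the 12 hour group. The 36 hour group read 11.89, 12.11, 12.18, 12.36 and 12.16, and the 72 hour group read 12.42, 12.07, 12.23, 11.95 and 12.22. The groups at 36 and 72 hours overlapped each other and lay below every earlier array. Egfr fell 1.81-fold between 4 and 36 hours (difference -0.86, SE 0.13, adjusted p = 1.48e-05), and the means at 36 and 72 hours differed by 0.04. Egfr was the 1 member among 8 named growth factor and cytokine receptors, of which 5 fell and 0 rose (median difference -0.49). This share of 62.5% lower stands beside 36.8% of the other named genes of clusters 2 and 3.

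Casp8 encodes the initiator caspase that death receptors activate. Casp8 measured 11.12, 11.20, 10.87, 11.32 and 11.28 on the 5 sham arrays, 11.06, 11.17, 10.92, 10.92 and 10.62 on those of 4 hours, and 10.03, 10.58, 10.56, 10.65 and 10.81 on those of 12 hours. Later, it measured 9.77, 10.47, 10.31, 10.35 and 10.46 (36 hours) and 10.06, 10.04, 9.97, 10.04 and 10.01 (72 hours). Every array at 36 hours lay below every array at 4 hours, and the 72 hour arrays were closely grouped between 9.97 and 10.06. Casp8 fell by 0.67 (SE 0.13, adjusted p = 3.88e-04). On the list of innate immune signalling and cell death, 8 of 15 named genes (53.3%) fell between 4 and 36 hours. On this list 0 rose, and the median difference was -0.26. Of the kinases, Hipk3, a homeodomain interacting protein kinase, fell by 0.85 (SE 0.09, adjusted p = 1.35e-07), and Pxk, a PX domain kinase-like protein, fell by 0.80 (SE 0.14, adjusted p = 6.76e-05). On the kinase list 6 of 18 named genes fell and 1 rose, a share of 33.3% lower against 36.8% of the other named genes of clusters 2 and 3.

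Of the 37 named genes of the secretory pathway and membrane traffic, 6 were among the 46 genes. Sec24d, a subunit of the COPII coat that gathers cargo for export from the endoplasmic reticulum, had the smallest p of the 46 genes. In sham livers Sec24d read 11.34, 11.47, 11.64, 11.71 and 11.64, after 4 hours 11.16, 11.16, 11.11, 11.04 and 11.12, and after 12 hours 11.36, 10.91, 11.18, 11.39 and 11.27. The readings were 10.03, 9.74, 10.08, 10.13 and 10.39 after 36 hours and 10.28, 10.41, 10.26, 10.40 and 10.22 after 72 hours. The arrays at 36 and 72 hours lay below all earlier ones and overlapped each other. Sec24d fell 2.06-fold between 4 and 36 hours (difference -1.04, SE 0.10, adjusted p = 8.88e-09).

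Rab39b is a small GTPase of vesicle traffic. Its log2 intensities were 10.23, 10.23, 10.57, 10.54 and 10.30 in the sham group, 10.66, 10.23, 10.40, 10.40 and 10.36 in the 4 hour group and 10.01, 10.41, 9.94, 10.06 and 9.74 in the 12 hour group. The 36 hour group read 9.56, 8.95, 9.06, 9.39 and 9.34, and the 72 hour group read 9.21, 9.22, 8.95, 9.10 and 8.96. The sham and 4 hour arrays covered nearly the same range, and those at 36 and 72 hours lay below all others. Rab39b fell 2.22-fold between 4 and 36 hours (difference -1.15, SE 0.12, adjusted p = 4.53e-08), and it was the 1 gene whose mean at 4 hours, by 0.04, was above sham. Golga5, a coiled-coil golgin of the Golgi apparatus, was lowest at 36 hours. Golga5 measured 9.60, 9.74, 9.16, 9.64 and 9.81 on the 5 sham arrays, 9.35, 9.41, 8.98, 9.19 and 8.45 on those of 4 hours, and 9.05, 8.84, 9.16, 8.92 and 8.92 on those of 12 hours. Later, it measured 7.91, 8.09, 8.17, 8.06 and 8.38 (36 hours) and 8.58, 8.36, 8.64, 8.57 and 8.66 (72 hours). It fell by 0.95 between 4 and 36 hours (SE 0.14, adjusted p = 9.42e-06), and its mean was higher by 0.44 at 72 hours than at 36 hours.

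Rab18, a small GTPase of lipid droplets and the endoplasmic reticulum, fell by 0.76 (SE 0.20, adjusted p = 0.00644). Kif5b, a heavy chain of the motor kinesin, fell by 0.47 (SE 0.16, adjusted p = 0.0306), with an adjusted p of up to 0.114 when single arrays were left out. Tmed5, a cargo receptor of the p24 family, had the second largest difference from sham at 72 hours, -1.73, but its difference of -0.72 between 4 and 36 hours did not pass the test (adjusted p = 0.0745), and the adjusted p ran from 0.015 to 0.209 when single arrays were left out. On the list as a whole 16 of the 37 genes fell, 1 rose, and the median difference was -0.30. The share lower was 43.2%, against 36.8% of the other named genes of clusters 2 and 3.

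Trp53inp2, which takes part in autophagosome formation and binds nuclear receptors, was low from 4 hours on in all but some arrays of 12 hours. In sham livers Trp53inp2 read 14.45, 14.67, 14.38, 14.46 and 14.83, after 4 hours 13.78, 13.56, 13.06, 13.45 and 13.02, and after 12 hours 14.40, 12.44, 14.50, 13.60 and 14.40. The readings were 12.81, 13.35, 13.39, 13.57 and 13.08 after 36 hours and 12.97, 12.74, 12.80, 12.81 and 12.87 after 72 hours. All arrays at 4 hours lay below all sham arrays, while 3 of the 5 arrays at 12 hours lay in the sham range and replicate 2 was the lowest of the 25. The mean differences from sham were -1.19 at 4 hours, -0.69 at 12 hours, -1.32 at 36 hours and -1.72 at 72 hours. Between 4 and 36 hours the difference was -0.13 (95% interval -0.68 to 0.41, adjusted p = 0.841). Atg16l1, a scaffold for the lipidation of LC3 in autophagy, had a difference of -0.39 in this contrast (95% interval -0.73 to -0.05, adjusted p = 0.1). Of the 7 named genes on the list of autophagy and lysosomal signalling, 2 fell and 0 rose. The share lower was 28.6%, against 36.8% of the other cluster genes.

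Zfp207, a zinc finger protein that binds the spindle checkpoint protein Bub3, was lowest at 4 hours. Its log2 intensities were 11.93, 11.86, 12.26, 12.16 and 11.98 in the sham group, 11.22, 10.78, 10.09, 10.67 and 10.01 in the 4 hour group and 11.26, 10.72, 11.42, 12.06 and 11.09 in the 12 hour group. The 36 hour group read 10.65, 10.50, 10.80, 10.89 and 10.55, and the 72 hour group read 11.18, 10.93, 11.07, 11.17 and 10.84. The 4 hour arrays lay below every sham array, and 12 hour replicate 4 was inside the sham range. Its mean differed from sham by -1.49 at 4 hours and by -1.001 at 72 hours, and between 4 and 36 hours by 0.13 (95% interval -0.29 to 0.54, adjusted p = 0.788). Of the 32 genes with zinc finger names, 9 fell between 4 and 36 hours and 4 rose. The share lower was 28.1%, against 36.8% of the other cluster genes.

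Dnttip2, a protein of the machinery that processes ribosomal RNA in the nucleolus, had a lower mean at each time until 36 hours. Dnttip2 measured 9.85, 9.95, 9.95, 10.22 and 9.87 on the 5 sham arrays, 9.74, 9.55, 9.62, 9.64 and 9.36 on those of 4 hours, and 8.80, 9.11, 8.96, 9.76 and 9.03 on those of 12 hours. Later, it measured 8.68, 8.59, 8.60, 8.67 and 8.58 (36 hours) and 8.57, 8.62, 8.57, 8.78 and 8.58 (72 hours). The 36 hour arrays were closely grouped and lay below every array at 4 and 12 hours. Dnttip2 fell 1.95-fold between 4 and 36 hours (difference -0.96, SE 0.12, adjusted p = 6.73e-07). Nol7, another nucleolar protein, had means of 9.96 in sham, 9.15 at 4 hours, 9.25 at 12 hours, 9.16 at 36 hours and 8.80 at 72 hours, and did not pass the test (difference 0.02, 95% interval -0.27 to 0.31). On the ribosome biogenesis list 6 of 12 named genes fell and 0 rose.

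Of the list of RNA splicing and processing, Prpf39 and Thoc2 were among the 46 genes. Prpf39, a factor of the early spliceosome, fell by 0.41 (SE 0.14, adjusted p = 0.0337), and Thoc2, a subunit of the complex that couples transcription to mRNA export, fell by 0.33 (SE 0.10, adjusted p = 0.0142). The adjusted p reached 0.0996 for Prpf39 and 0.062 for Thoc2 when single arrays were left out. Celf2, an RNA binding protein of alternative splicing that was on none of the lists, fell by 0.40 (SE 0.11, adjusted p = 0.00643). Of 34 named genes of RNA splicing and processing, 12 fell, Prpf39 and Thoc2 among them, and 1 rose. This share of 35.3% lower includes these members, while the 36.8% of the other cluster genes leaves them out. Tbp, the TATA binding protein, also on none of the lists, had a difference of -0.23 (adjusted p = 0.0571). Dars, which charges transfer RNA with aspartate, fell by 0.47 (SE 0.10, adjusted p = 0.00105). On the list of amino acid, sugar and cofactor metabolism 13 of 20 named genes (65.0%) fell and 1 rose.

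In protein turnover, Asb2, a substrate receptor of a ubiquitin ligase, fell by 0.68 (SE 0.20, adjusted p = 0.0118), while Psmc6, an ATPase of the proteasome cap, differed by 0.13 (95% interval -0.27 to 0.53, adjusted p = 0.769). Of the 39 named genes on the ubiquitin and proteolysis list 16 fell (41.0%, against 36.8% of the other cluster genes) and 4 rose. Hsdl2, a dehydrogenase of peroxisomes, fell by 0.45 (SE 0.16, adjusted p = 0.0373), with an adjusted p of up to 0.146 when single arrays were left out. Of 11 named peroxisomal genes, 6 fell (54.5%) and 0 rose. The lists of transcription factors (8 of 25 or 32.0% lower, 3 higher) and chromatin regulation (7 of 20 or 35.0% lower, 2 higher) held no member, as Tbp was on neither.

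Of the 46 genes, 22 were on none of the lists, and 17 of these fell between 4 and 36 hours and 0 rose. In the whole set 34 of 46 fell (73.9%), and of all probes 11.5% were lower and 12.7% higher. The lists are not complete, and some of these genes, such as the ubiquitin ligases Trim39 and Arel1, have functions that a list covers. Cldnd2, a claudin domain protein, fell by 0.95 (SE 0.15, adjusted p = 3.21e-05) to a mean of 6.91, near the level of a typical probe. Polr3gl, a subunit of RNA polymerase III, fell by 0.77 (SE 0.12, adjusted p = 1.89e-05), and Helb, a DNA helicase, by 0.76 (SE 0.13, adjusted p = 5.21e-05). Ireb2 fell by 0.81, Trim39, a ubiquitin ligase, by 0.69, Ppip5k2, an inositol pyrophosphate kinase, by 0.67 and D11Wsu47e by 0.63. Cdk11b, a cyclin dependent kinase, and R3hcc1l each fell by 0.59, Ccpg1, a receptor for the autophagy of endoplasmic reticulum, by 0.50, Dipk2a by 0.48, Itpr1 by 0.47, Kti12 by 0.37 and Rp9 by 0.34. Serinc3, a membrane protein, differed by -0.32 and did not pass the test (adjusted p = 0.362). Dnaja3, a mitochondrial chaperone partner, read 12.17, 10.95, 12.15, 12.18 and 12.05 at 4 hours, and replicate 2 lay more than 1 log2 unit below the rest. Its difference of -0.39 did not pass the test (adjusted p = 0.268), whereas without that array it was -0.62 (adjusted p = 0.0183). Eps15, an adaptor of clathrin coated pits, differed by 0.10 between 4 and 36 hours (95% interval -0.31 to 0.50). Ghitm, a protein of the inner mitochondrial membrane, differed by -0.38 (adjusted p = 0.289). Amigo2, an adhesion molecule, fell by 0.71 (SE 0.14, adjusted p = 3.57e-04), and Arel1, a ubiquitin ligase, by 0.57 (SE 0.10, adjusted p = 1.36e-04).

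Itpr1, a calcium channel of the endoplasmic reticulum that inositol trisphosphate opens, Hipk3, Rab18 and Ireb2, which controls mRNAs of iron metabolism, had further probes in the rows at hand. At 72 hours the other probe of Itpr1 differed from sham by -1.13 and that of Rab18 by -1.25. The other Ireb2 probe differed by -1.14 at 12 hours and by -1.44 at 72 hours, so it did not meet the 12 hour threshold. It was the brighter of the 2 Ireb2 probes, with a sham mean of 12.14 against 11.29, so Ireb2 is included through its dimmer probe. The other mRNA probe of Hipk3 differed by -0.52 at 72 hours, where the chosen probe differed by -1.07, and a probe listed as noncoding under the same gene by -0.88. Between 4 and 36 hours the second probes differed by -0.39 for Itpr1, -0.33 for Rab18, -0.74 for Ireb2 and -1.12 for Hipk3, all in the direction of the chosen probe.

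Between 4 and 12 hours the genes went both ways. Trim39, Serinc3, Celf2, Mgll and Zfp207 were higher at 12 than at 4 hours (5 of 46, against 14.0% of all probes), by 0.29 to 0.76, and 9 genes, among them Amigo2, Arel1 and Dnttip2, were lower (13.2% of all probes). From 12 to 36 hours 27 genes were lower (15.0% of all probes) and 0 higher (14.4% of all probes). From 36 to 72 hours Insig2, Kif5b, Itpr1 and Ccpg1 were lower (4 of 46, against 4.54% of all probes) and Golga5 was higher (5.37% of all probes). Higher and lower here mean an adjusted p under 0.05 in the fit over all probes, and as these steps include arrays that chose the genes, the counts are descriptions and support nothing, and the genes were named after their values were seen.

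Markers were looked up only in the study's list of changed transcripts, so an unchanged marker could not appear. Of 10 hepatocyte markers listed, 5 were in the rows at hand, and these moved in part with the 46 genes. The summed linear intensity of the 5 hepatocyte markers lay between 161833 and 192590 in sham livers. After 4 hours this sum was between 102454 and 134066, after 12 hours between 131491 and 153151, after 36 hours between 109051 and 126001, and after 72 hours between 94105 and 112560. At 72 hours the markers differed from sham by -0.19 (F2) to -1.96 (Lbp) on the log2 scale. Between 4 and 36 hours 1 of the 5, Lbp, was lower and 0 were higher, with a median of -0.11. Among 3 endothelial markers Clec1b was lower and Clec14a higher in that contrast, and their summed intensity lay between 1144 and 1275 after 4 hours and between 957 and 1169 after 36 hours. The stellate cell marker Col14a1 fell by 0.75 on the log2 scale in that contrast, from linear intensities between 1042 and 1181 to between 550 and 741. The Kupffer cell marker Spic differed by 0.13 and the cholangiocyte marker Anxa4 by -0.27. Markers of neutrophils, T and NK cells, B cells and erythroid cells were not among the named rows. The part of cell composition in the differences was not tested.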

How the data were processed

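RNA of 25 liver samples, 5 in each of 5 groups, was measured on single-colour (Cy3) arrays with probes for mRNAs and noncoding RNAs. The authors deposited 1 linear intensity per probe and array, already scaled between arrays by a method not given in the sources used here. They are linear, unlike the output of vsn, which the methods mention. A scaling that equalises arrays would remove a shift shared by all probes. Log2 was taken with no background correction or filter, and 2 blank probes of 35981 were left out. With 1 mean per group, 35979 probes were fitted in limma 3.58.1 (R 4.3.3; lmFit, then eBayes) using all 25 arrays, and p-values were adjusted after Benjamini and Hochberg over all probes. The methods' maSigPro regression was not used. Tables and figures were made in Python 3.11.15 with pandas 2.3.3 and matplotlib 3.10.9.

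The members and lists were chosen with earlier results of these data known, and the lists also with the clusters of the listed transcripts known. The gene list at hand is a part of the study's list of changed transcripts; further rows were not used here. Symbols of all 46 genes were matched by Entrez ID, and 7 differ from the listed name. The genes named were the 12 with the largest difference at 72 hours, up to 4 members of each gene list by smallest p, those nearest the thresholds, those higher at 36 than at 4 hours, and those with further probes. The remaining members, given so that each is accounted for, and genes named for steps between times or as markers fall outside this rule and were chosen after their values were seen.

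On data simulated for PHx 36 h against PHx 4 h with 35979 probes, a change of 1.2-fold was found for 13 of 50 probes, 1.5-fold for 38 of 50, 2-fold for 48 of 50 and 4-fold for 49 of 50, and 11 unchanged probes were called. All other probes were unchanged and the noise was normal, whereas in the data 4134 probes were lower and 4573 higher in this contrast. The cutoff of the adjustment depends on that number, so these rates do not carry over to the data. Precision is limited by the 5 arrays per group. The labels number the samples but name no animal, so p-values measure only the spread between these samples. Alternatives to the normalization, centring, log offset, dim probe filter, variance model, groups in the fit, test, replicate numbers and single arrays were run, and a normexp background correction and a fit without PHx 72 h replicate 4 were chosen after seeing the data.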

Additional observations from a re-analysis of the deposited data

Results flagged for a closer look

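In 230 groups of 5 arrays (46 genes in 5 groups), 17 single arrays of 13 genes stood apart from the other 4 by Dixon's test, 6 of them at 4 hours, 4 in sham, 3 at 72 hours, 2 at 36 hours and 2 at 12 hours. Chance flags about 1 in 20 groups. At 4 hours after PHx the arrays that stood apart were Dnaja3 replicate 2 (10.95 on the log2 scale, nearest array 12.05), Itpr1 replicate 3 (10.33, nearest 10.52), Tbp replicate 5 (8.94, nearest 9.24), Egfr replicate 2 (13.33, nearest 12.96), Celf2 replicate 1 (9.55, nearest 9.12) and Polr3gl replicate 3 (8.54, nearest 8.29). In sham they were Rab18 replicate 5 (11.63, nearest 11.38), Dnttip2 replicate 4 (10.22, nearest 9.95), Eps15 replicate 5 (9.49, nearest 9.20) and Ccpg1 replicate 3 (10.80, nearest 10.58). At 72 hours they were Dnttip2 replicate 4 (8.78, nearest 8.62), Eps15 replicate 4 (8.76, nearest 8.08) and Golga5 replicate 2 (8.36, nearest 8.57). At 36 hours Casp8 replicate 1 (9.77, nearest 10.31) and Polr3gl replicate 1 (7.86, nearest 7.52) stood apart, and at 12 hours Polr3gl replicate 4 (7.86, nearest 8.39) and Atg16l1 replicate 2 (9.01, nearest 9.68). The mean over the 46 genes, tested likewise in the 5 groups, stood apart for PHx 72 h replicate 4 (9.68, nearest 9.496).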

How the results depend on the processing

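The count of 34 genes lower at 36 than at 4 hours was 27 with the methods' t-test, 31 with only the arrays of those times and 34 or 35 under the other alternatives, and 29 to 37 when single arrays of those times were left out and 35 without PHx 72 h replicate 4 (added after seeing the data, with Tmed5 gaining the call at an adjusted p of 0.0451), while 0 genes were higher under any of them. The set itself depended on its thresholds, and held 110 genes at a 72 hour threshold of -0.8, 17 at -1.2, and 17 at a 12 hour threshold of -0.5. It held 40 to 49 genes under the other normalizations, averages and orders of steps, and 43 to 58 when single arrays of sham, 12 or 72 hours were left out, with 58 without PHx 72 h replicate 4. Of the 46 genes, 28 were kept each time such an array was left out.

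Same-numbered arrays correlated between -0.06 and 0.08 in their deviations from the group means, so this correlation showed no pairing. In the mean over the gene set, however, replicate 4 was the highest array at 12 hours (10.24), 36 hours (9.86) and 72 hours (9.68). In sham (10.7759, highest 10.7761) and at 4 hours (10.32, highest 10.36) it lay just below the highest array. Whether the replicate number goes with a shift shared by these genes was not tested. With the replicate number as a block, 35 genes were lower and 0 higher, Hsdl2 lost its call (adjusted p = 0.0531) and Tmed5 and Atg16l1 gained one (adjusted p = 0.0182 and 0.0328, limma).

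Rab18, Kif5b, Rp9, Prpf39, Thoc2, Hsdl2, Dipk2a, Kti12 and Celf2 lost the call under at least 1 alternative, Rab18 and Celf2 only with the methods' t-test. With single arrays left out, the largest adjusted p in limma was 0.114 for Kif5b (without PHx 36 h replicate 1), 0.146 for Hsdl2 (without PHx 4 h replicate 1), 0.0996 for Prpf39 (without PHx 4 h replicate 3), 0.0906 for Dipk2a (without PHx 36 h replicate 2), 0.078 for Rp9 (without PHx 36 h replicate 4), 0.0651 for Kti12 and 0.062 for Thoc2 (both without PHx 4 h replicate 1). Without PHx 36 h replicate 4, Tmed5 (adjusted p = 0.015), Dnaja3 (0.037), Ghitm (0.0344) and Tbp (0.0382) passed in limma. The direction of 4 genes whose difference was near 0 reversed. Nol7 was -0.0102 with quantile normalization, and -0.0585 (without PHx 36 h replicate 3) to 0.0877 when single arrays were left out, also below 0 without PHx 4 h replicate 2 (-0.0337) or 5 (-0.0364). Eps15 ranged from -0.0384 (without PHx 36 h replicate 4) to 0.238, also below 0 without PHx 36 h replicate 3 (-0.0012) or PHx 4 h replicate 5 (-0.0158). Psmc6 ranged from -0.0347 (without PHx 36 h replicate 4) to 0.2026, and Zfp207 from -0.0101 (without PHx 4 h replicate 5) to 0.2912. The cause was not tested.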
